A study of Mus musculus with 12 samples.

Results

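The 10 genes described here encode the sensors, adaptor, proteases and pore former of the canonical and noncanonical inflammasomes: Nlrp3, Nlrp1b, Nlrc4, Naip5, Mefv, Pycard, Nek7, Casp1, Casp4 and Gsdmd. They were taken by symbol from a matrix of 47729 genes, each symbol had 1 row, and all 10 passed the filter on low counts among 15232 in all. Polyadenylated RNA was sequenced from adherent peritoneal macrophages of C57BL/6 mice, of unstated age and sex. The mice had received either 3% thioglycollate (TG), an irritant broth that draws inflammatory cells into the peritoneum, 4 days before lavage, or 2 injections of IL-4 complex (IL4c), 5 ug of IL-4 with 25 ug of an antibody to it, the last of them 2 days before lavage. The attached cells were then kept for 24 h either untreated or with 20 ug/ml SPARC, a secreted matrix-binding glycoprotein, which gave 4 groups of 3 libraries. No group received a control protein according to the labels, and no group came from mice without an injection. Nothing in the labels ties replicates to separate animals, and the p-values therefore reflect only how far these libraries differ, which may be technical.

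Inflammasomes are cytosolic complexes in which a sensor that has met a danger or microbial signal recruits the adaptor ASC, encoded by Pycard, and through it the protease caspase-1. Caspase-1 cuts the precursors of IL-1beta and IL-18 and also gasdermin D, whose freed amino-terminal part forms pores in the plasma membrane, the lytic death called pyroptosis. In the noncanonical route caspase-11, the product of mouse Casp4, binds intracellular lipopolysaccharide and cuts gasdermin D itself. Macrophages are the cells in which most of this has been worked out, and several of the components are kept at a low transcript level until a priming signal raises them. The values below are transcript levels; cleavage, complex assembly and cell death were not measured.

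Each library held 31501941 to 42288785 estimated counts, so that 3 counts, the limit below which a level was read as not detected, equalled 0.0707 to 0.0974 CPM (counts scaled to library size). In both treatments the TG library numbered 1 differed from its fellows in its cell type markers. The summed CPM of 8 B cell markers was 2294 in the untreated and 1787 in the SPARC library of that pair, against 166 to 267 in the other TG libraries. The dendritic cell list (6 genes) stood at 45.2 and 79.0 CPM in that pair and at 10.6 to 17.9 CPM in the other TG libraries. The mesothelial cell and fibroblast list (7 genes) was lower in that pair, at 4.31 and 20.5 CPM against 93.2 to 176 CPM. In IL4c libraries it stood at 1.71 to 8.13 CPM. Of its 5 tested genes, 1 was called lower in IL4c than in TG untreated (10.8% of all genes), and 3 with SPARC (10.1% of all genes). All 8 macrophage markers were detected, with sums of 22098 to 34911 CPM in TG untreated, 30334 to 31085 in TG with SPARC, 20533 to 27806 in IL4c untreated and 12897 to 18785 in IL4c with SPARC, of which Lyz2 made up the greater part in TG. In TG 0 of these 8 passed the test with SPARC (11.3% of all genes). In IL4c Lyz2 (11679 to 20372 CPM untreated, 4444 to 9577 with SPARC) and Mertk fell and Fcgr1 rose (5.84 to 12.04 and 101 to 268 CPM). Of all genes, 12.7% were called lower and 15.1% higher there. The large resident macrophage list (6 genes) summed to 800 to 991 CPM in TG untreated and 197 to 569 CPM with SPARC, and to 1348 to 2292 and 458 to 975 CPM in the IL4c groups. The sums in TG untreated 1 and 2 were mostly Cd93 (678 and 951 CPM). With SPARC 0 of the 6 passed the test in TG (11.3% of all genes) and 1 fell in IL4c (12.7% of all genes). Gata6 in IL4c was at 46.2, 46.2 and 19.0 CPM untreated and 47.0, 45.0 and 21.2 CPM with SPARC. Timd4 there was at 35.8, 23.2 and 8.47 CPM untreated and 16.2, 32.0 and 15.6 CPM with SPARC. The monocyte list (6 genes) summed to 49.9 to 237 CPM in TG untreated, highest in library 1, and 240 to 339 CPM in TG with SPARC. In IL4c it summed to 24387 to 35285 CPM untreated and 19190 to 26460 CPM with SPARC, nearly all of it Chil3. The sum there thus follows 1 gene and is no measure of the list. Of the 6 genes, 1 was called higher and 2 lower in IL4c than in TG, both untreated and with SPARC. The shares of all genes were 10.2% higher and 10.8% lower untreated, and 10.9% and 10.1% with SPARC. With SPARC Ly6c2 rose (in TG from 0.50 to 14.2 CPM to 189 to 227 CPM) and Ccr2 fell (in TG from 30.0 to 61.0 CPM to 10.8 to 18.04 CPM) in both macrophage types. Of 11 neutrophil markers 3 could be tested. S100a8 rose with SPARC in both types, from 6.57 to 11.4 CPM to 27.5 to 51.6 CPM in TG and from 6.36 to 9.13 CPM to 25.4 to 39.1 CPM in IL4c. Camp rose in IL4c, and Csf3r, at 98.9 to 308 CPM over all libraries, passed in neither. The defining neutrophil markers Ly6g, Ngp and S100a9 and the eosinophil markers Ear6, Epx and Prg2 never exceeded 3 counts. These marker levels move with the groups compared below. Their part in the results was not tested, and in bulk RNA fewer cells of a type and less RNA per cell cannot be told apart.

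Of the 10 genes, 9 had a promoter window in the RefSeq table of GRCm38.p6 (12 windows in all, each from 250 bases before to 50 bases after an annotated start). Windows were searched on both strands for the interferon-stimulated response element core (GAAA, repeated with 2 bases of any kind between), the GAS motif TTCNNNGAA, the kappaB consensus and the PU.1 core GAGGAAGT. The 250 upstream bases are printed, 5′ to 3′ in the direction of transcription with any match in capitals, for the 3 genes that passed the test in both SPARC comparisons. The Casp4 window spans chr9:5308599-5308848 on the plus strand, that of Mefv chr16:3718125-3718374 on the minus strand, and that of Nlrp1b chr11:71230734-71230983 on the minus strand.
Casp4: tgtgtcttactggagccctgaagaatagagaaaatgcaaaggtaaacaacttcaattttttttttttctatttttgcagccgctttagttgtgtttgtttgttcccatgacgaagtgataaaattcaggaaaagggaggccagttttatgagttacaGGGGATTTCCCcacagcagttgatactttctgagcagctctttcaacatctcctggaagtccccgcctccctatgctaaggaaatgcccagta
Mefv: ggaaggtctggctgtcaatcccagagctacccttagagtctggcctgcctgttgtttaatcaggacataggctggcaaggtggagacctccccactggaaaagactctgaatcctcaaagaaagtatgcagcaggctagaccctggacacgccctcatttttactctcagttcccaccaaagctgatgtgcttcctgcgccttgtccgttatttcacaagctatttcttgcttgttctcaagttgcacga
Nlrp1b: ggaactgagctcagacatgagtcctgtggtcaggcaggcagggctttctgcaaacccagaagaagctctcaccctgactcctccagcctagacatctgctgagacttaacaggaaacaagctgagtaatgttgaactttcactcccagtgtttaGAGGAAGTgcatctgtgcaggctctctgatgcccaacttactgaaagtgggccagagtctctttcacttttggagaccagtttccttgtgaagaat
In Casp4 the capitals mark overlapping kappaB matches that begin 93 and 92 bases before the start, the second of them read on both strands. In Nlrp1b they mark the PU.1 core 96 bases before the start. No match to the 4 motifs was found in the Mefv window. A kappaB match was also present in the second annotated start of Nlrp3 and in Naip5, and a PU.1 core in Pycard. Neither the interferon-stimulated response element core nor the GAS motif was found in any of the 12 windows. Among all 32851 promoter windows of the table, 4.51% held a kappaB match, 3.2% the PU.1 core, 3.44% the response element core and 8.3% the GAS motif. A match describes letters in a window and does not show a bound factor.

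The first question was what SPARC did to these transcripts in each kind of macrophage. In TG macrophages 2 of the 10 genes were higher with SPARC, Mefv and Casp4, and Nlrp1b was lower, at an adjusted p under 0.05 in the quasi-likelihood test of edgeR over all genes. Over all genes tested in that comparison, 6.73% were called higher and 4.52% lower, 11.3% in either direction. In IL4c macrophages 4 genes were higher, Mefv, Casp4, Casp1 and Gsdmd, and 2 were lower, Nlrp1b and Nek7. The shares over all genes were larger there as well, at 15.1% higher and 12.7% lower, 27.8% in either direction. The median log2 fold change of the 10 genes was 0.43 in TG and 0.26 in IL4c, against −0.03 and −0.0014 over all genes tested. The 3 libraries of a group lay wholly above those of the other for 4 genes in TG (16.2% of all genes) and for 4 in IL4c (25.5%). They lay wholly below for Nlrp1b and Nek7 in both (14.2% and 24.8% of all genes).

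**Figure D1:**
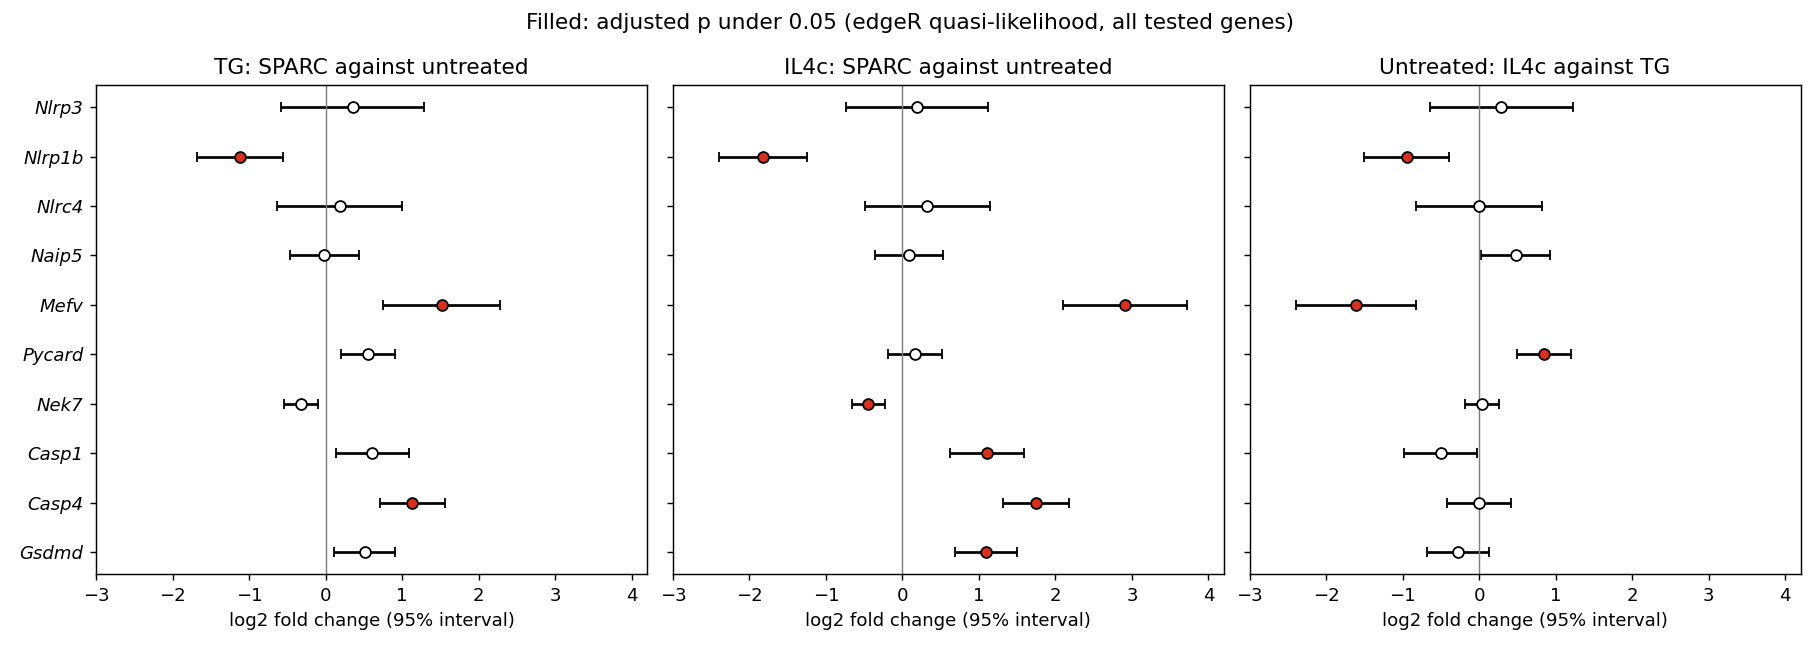
Log2 fold change (x axis) of the 10 genes (y axis) with its 95% interval, for SPARC against untreated in TG and in IL4c macrophages and for IL4c against TG without SPARC; filled points have an adjusted p under 0.05. Mefv and Casp4 lie to the right and Nlrp1b to the left of 0 in both SPARC panels, while Casp1, Gsdmd and Nek7 are filled in the IL4c panel only.

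Among the sensors, Mefv had the largest rise. It encodes pyrin, which responds to bacterial toxins that switch off the GTPase RhoA and is mutated in familial Mediterranean fever. Its level in TG macrophages was 39.3, 18.2 and 21.5 CPM in untreated libraries 1 to 3 and 59.5, 82.9 and 83.3 CPM with SPARC. IL4c macrophages held 10.4, 9.2 and 6.3 CPM untreated and 59.4, 90.4 and 44.6 CPM with SPARC. Every SPARC library was above every untreated library in both, and the IL4c untreated libraries were the lowest of the 12. SPARC raised Mefv by 1.52 ± 0.34 (log2 ± SE, 2.86-fold, adjusted p = 0.0217) in TG and by 2.91 ± 0.36 (7.51-fold, adjusted p = 5.00e-04) in IL4c macrophages. Within libraries of the same number the ratio of SPARC to untreated was 1.52 to 4.56 in TG, the smallest in the pair that stood apart, and 5.70 to 9.79 in IL4c. Without that pair the TG change was 2.09 with an adjusted p of 0.00529. The TG call was lost when any 1 of the TG libraries numbered 2 or 3 was left out (adjusted p 0.0580 to 0.0788), while the IL4c call remained in all 12 such fits.

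Nlrp1b moved the other way. Its protein is a sensor activated when a pathogen protease, such as anthrax lethal factor, cuts it, and mouse strains differ in their response to that toxin. Its level in TG macrophages was 39.8, 25.4 and 27.7 CPM untreated and 10.5, 15.9 and 16.5 CPM with SPARC. In IL4c macrophages it was 12.8, 17.6 and 17.8 CPM untreated and 3.8, 5.9 and 3.9 CPM with SPARC. The TG untreated libraries were the highest of the 12 and the IL4c SPARC libraries the lowest, and SPARC and untreated libraries did not overlap within an injection. Nlrp1b fell by 1.12 ± 0.25 on the log2 scale (adjusted p = 0.0211) in TG and by 1.82 ± 0.26 (adjusted p = 9.68e-04) in IL4c macrophages, which is 2.17-fold and 3.53-fold lower. The TG call rested partly on the pair numbered 1: without both of its libraries the change was −0.69 with an adjusted p of 0.0733. It was also lost on leaving out TG untreated 1, TG untreated 3, TG SPARC 1 or TG SPARC 2 (adjusted p 0.0508 to 0.0605).

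Nlrp1b lies in a cluster with the near-identical Nlrp1a and the pseudogene Nlrp1c-ps, among which reads can be divided by estimation. Summed over the 3 genes, the SPARC change was −0.98 ± 0.22 (adjusted p = 0.0196) in TG and −1.55 ± 0.22 (adjusted p = 9.76e-04) in IL4c macrophages. The pseudogene fell as well (log2 −1.40, adjusted p = 0.0400, and −4.46, adjusted p = 1.97e-04). Its mean went from 11.4 to 4.31 CPM in TG and from 5.65 to 0.253 CPM in IL4c. The libraries of IL4c with SPARC held 0.158 to 0.395 CPM, so the size of that fold rests on very low levels. Nlrp1a showed −0.07 and 0.09 (adjusted p = 0.932 and 0.884). The fall thus held for the sum, and among the 3 genes Nlrp1a did not pass the test.

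Nlrp3, the sensor of potassium efflux and membrane damage and the one most often described as induced by priming, did not pass the test in either macrophage type. Its level in TG macrophages was 103, 34.1 and 35.5 CPM untreated and 102, 56.4 and 61.7 CPM with SPARC. The IL4c values were 84.6, 77.5 and 49.1 CPM untreated and 77.1, 87.7 and 76.8 CPM with SPARC. The highest values belonged to the TG pair numbered 1, which also held the B cell and dendritic cell markers, and the groups overlapped. The log2 difference was 0.35 ± 0.42 (95% interval −0.58 to 1.29, adjusted p = 0.654) in TG and 0.19 ± 0.42 (−0.74 to 1.12, adjusted p = 0.768) in IL4c macrophages. Without both TG libraries numbered 1 the TG difference was 0.79 with an adjusted p of 0.0447, and without TG untreated 1 alone it was 1.07 with an adjusted p of 0.0338. The ratio within numbered libraries was 0.994 to 1.74 in TG and 0.911 to 1.56 in IL4c, above 1 in 2 of 3 pairs each.

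Nlrc4 and Naip5 act together: Naip5 binds flagellin and then nucleates oligomers of Nlrc4, which engage caspase-1. Nlrc4 had 33.8, 12.7 and 14.8 CPM in TG untreated, 34.0, 17.3 and 18.3 in TG with SPARC, 19.3, 23.2 and 18.7 in IL4c untreated and 22.2, 29.2 and 25.3 in IL4c with SPARC. As for Nlrp3, the TG pair numbered 1 had the highest values. The SPARC difference was 0.18 ± 0.37 in TG (adjusted p = 0.811) and 0.33 ± 0.37 in IL4c (adjusted p = 0.556). With the library number as a block the IL4c difference, 0.32, had an adjusted p of 0.0282. Naip5 ranged from 77.4 to 111 CPM in TG and from 103 to 162 CPM in IL4c libraries, with overlap between SPARC and untreated in each. Its SPARC difference was −0.02 ± 0.20 (95% interval −0.46 to 0.43, adjusted p = 0.973) in TG and 0.09 ± 0.20 (−0.36 to 0.53, adjusted p = 0.785) in IL4c.

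Pycard encodes ASC, the adaptor that joins Nlrp3 and pyrin to caspase-1. Its level was 96.3, 75.8 and 68.7 CPM in TG untreated and 123, 120 and 111 CPM in TG with SPARC. IL4c macrophages held 163, 146 and 126 CPM untreated and 178, 180 and 130 CPM with SPARC. The TG groups did not overlap, whereas the IL4c groups did. The TG difference of 0.56 ± 0.16 had an adjusted p of 0.0505, and with the library number as a block 0.57 with an adjusted p of 0.00357. It was 0.70 with an adjusted p of 0.0292 without the pair that stood apart. In IL4c macrophages the difference was 0.17 ± 0.16 (adjusted p = 0.477).

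Nek7 is a kinase that binds Nlrp3 and is needed for its assembly in mouse macrophages. Untreated libraries held 158, 159 and 148 CPM in TG and 161, 164 and 152 CPM in IL4c. With SPARC they held 104, 136 and 133 CPM in TG and 118, 114 and 119 CPM in IL4c. All 6 SPARC libraries were below all 6 untreated ones. Nek7 fell by 0.44 ± 0.10 on the log2 scale (1.36-fold lower, adjusted p = 0.00866) in IL4c macrophages, a call lost on leaving out IL4c SPARC 1 (adjusted p = 0.052). The call was also lost without both IL4c libraries numbered 3 (−0.47, adjusted p = 0.0702). In TG macrophages the difference was −0.32 ± 0.10 with an adjusted p of 0.0634, and −0.33 with an adjusted p of 0.0372 with the library number as a block.

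**Figure D2:**
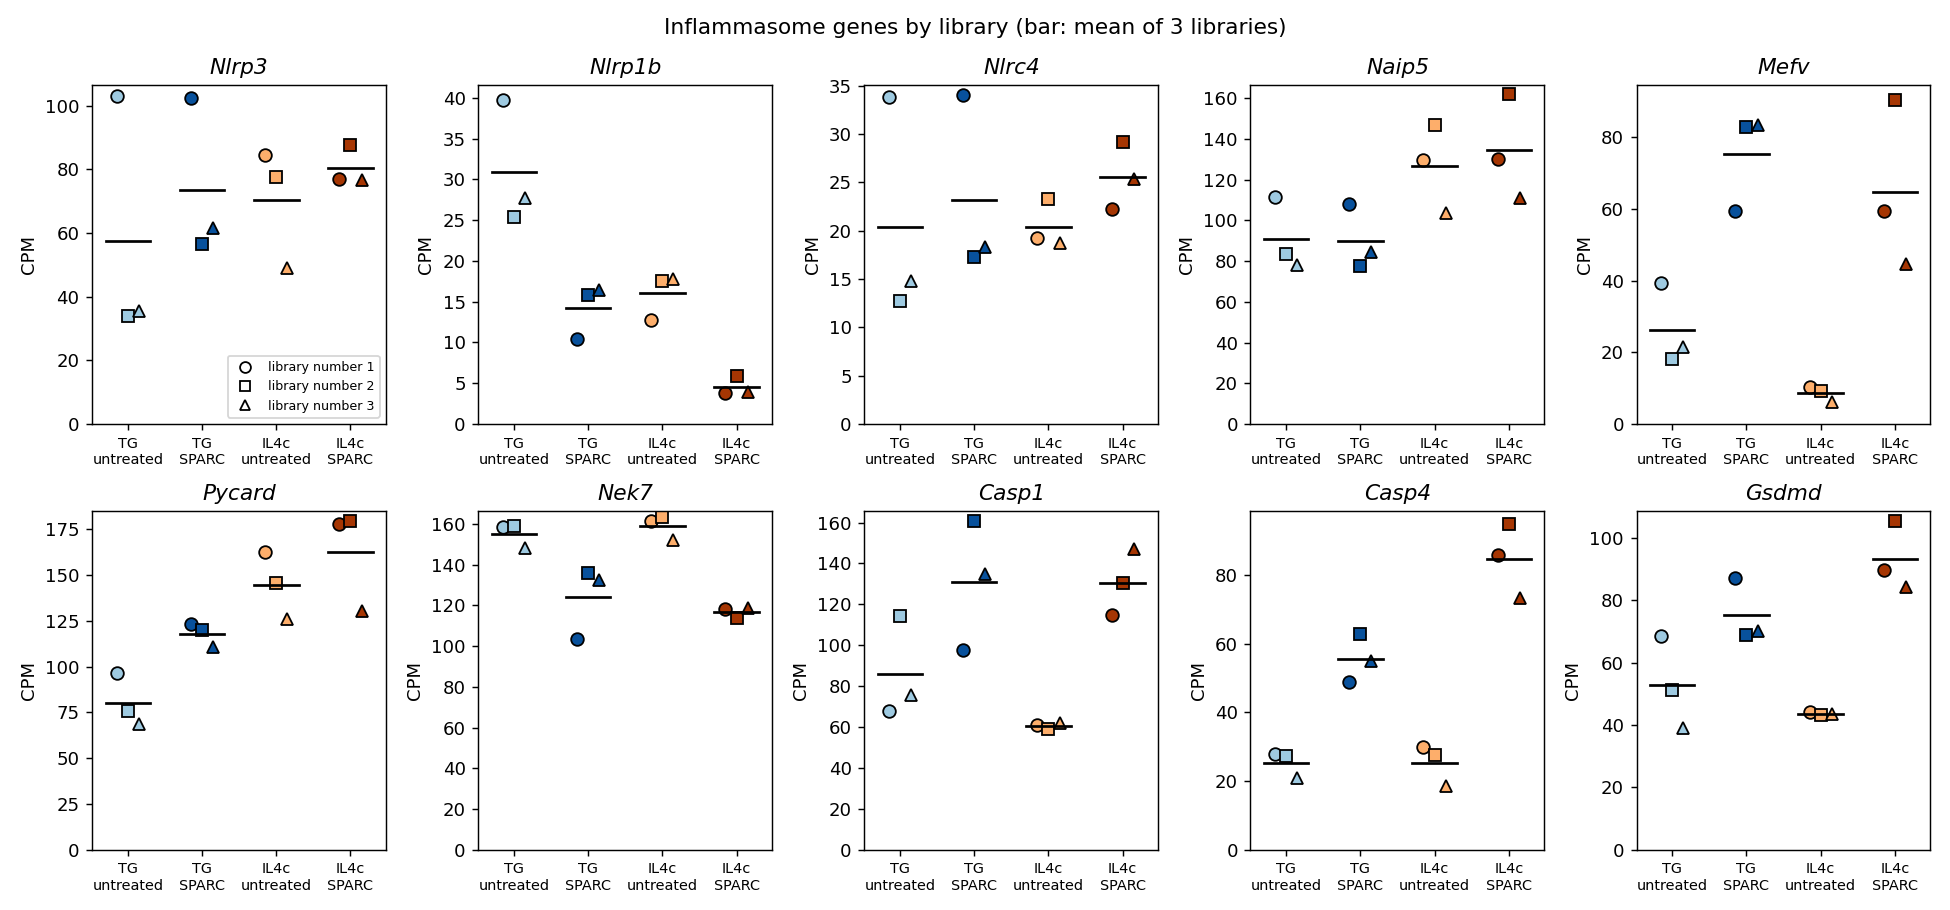
Level of each of the 10 genes in CPM (y axis, from 0) in the 4 groups (x axis), 1 symbol per library by its number and a bar at the mean of 3. SPARC libraries lie above untreated ones for Mefv and Casp4 and below for Nlrp1b and Nek7 in both injections; the circles of the TG groups, libraries numbered 1, stand high for Nlrp3 and Nlrc4.

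Casp4 and Casp1 are neighbours on the plus strand of chromosome 9 in GRCm38: Casp1 runs from 5298517 to 5307265 and Casp4 from 5308828 to 5336783. Casp4 was the one gene of the 10 that was called in both SPARC comparisons and kept both calls whichever library was left out. Its level in TG macrophages was 27.8, 27.3 and 20.9 CPM untreated and 48.9, 63.0 and 55.0 CPM with SPARC. In IL4c macrophages it was 29.8, 27.5 and 18.5 CPM untreated and 85.9, 94.9 and 73.3 CPM with SPARC. The untreated groups overlapped, and each SPARC group lay above both. SPARC raised Casp4 by 1.13 ± 0.19 (2.19-fold, adjusted p = 0.00637) in TG and by 1.75 ± 0.19 (3.35-fold, adjusted p = 2.78e-04) in IL4c macrophages. Over the 12 fits that each left out 1 library the changes were 1.03 to 1.26 in TG and 1.57 to 1.88 in IL4c.

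Casp1, the effector protease of the canonical route, was at 68.1, 114 and 75.7 CPM in TG untreated and 97.8, 161 and 135 CPM in TG with SPARC. The IL4c values were 60.8, 59.1 and 62.1 CPM untreated and 115, 130 and 147 CPM with SPARC. The IL4c untreated libraries lay close together, and all 3 SPARC libraries were above them. Casp1 rose by 1.11 ± 0.22 (2.15-fold, adjusted p = 0.00474) in IL4c macrophages. That call was lost without both IL4c libraries numbered 3 (1.05, adjusted p = 0.0548). In TG macrophages the groups overlapped, because untreated library 2 exceeded SPARC library 1, and the difference of 0.61 ± 0.21 had an adjusted p of 0.0992. Within numbered libraries the TG ratio was 1.41 to 1.78, and with the library number as a block the TG difference, 0.61, had an adjusted p of 0.00337. Without the TG pair numbered 1 it was 0.66 with an adjusted p of 0.0474.

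Gsdmd, the pore former on which both caspases act, was at 68.7, 51.2 and 39.1 CPM in TG untreated and 87.1, 69.0 and 70.1 CPM in TG with SPARC. In IL4c macrophages it was at 44.4, 43.2 and 43.6 CPM untreated and 89.7, 105 and 84.4 CPM with SPARC. SPARC libraries were above untreated ones in both injections, narrowly in TG. Gsdmd rose by 1.09 ± 0.18 (2.13-fold, adjusted p = 0.00217) in IL4c macrophages. The TG difference was 0.51 ± 0.18 with an adjusted p of 0.102. It was 0.54 with an adjusted p of 0.0112 with the library number as a block, and 0.65 with an adjusted p of 0.0163 without the pair numbered 1.

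Fold changes of Mefv, Casp4, Casp1, Gsdmd and Nlrp1b were larger in IL4c than in TG macrophages, but the difference of the SPARC responses did not pass the test for any of the 10 genes. The log2 difference of responses was 1.39 ± 0.48 for Mefv (adjusted p = 0.330), 0.61 ± 0.27 for Casp4 (adjusted p = 0.455), 0.58 ± 0.26 for Gsdmd (adjusted p = 0.457) and −0.70 ± 0.36 for Nlrp1b (adjusted p = 0.543). By edgeR 0 of the 10, and 0% of all genes, passed after adjustment, while 3 of the 10 and 10.6% of all genes had an unadjusted p under 0.05. DESeq2 and limma-voom also called 0 of the 10, with 3 and 2 of them at an unadjusted p under 0.05, as had 11.7% and 10.1% of all genes. DESeq2 called 364 of all genes after adjustment and limma-voom 0. With the block 0 of the 10 and 472 of all genes were called, and 5 of the 10 and 21.8% of all genes had an unadjusted p under 0.05.

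The second question was how the injections differed in cells kept for 24 h without SPARC. Pycard was higher in IL4c than in TG macrophages (10.2% of all genes were called higher), and Mefv and Nlrp1b were lower (10.8% of all genes were called lower). Pycard was 0.85 ± 0.16 higher (adjusted p = 0.00683). Mefv was 3.05-fold lower (−1.61 ± 0.35, adjusted p = 0.0122), and Nlrp1b was 1.93-fold lower (−0.95 ± 0.25, adjusted p = 0.0258). For Pycard and Mefv the call remained in all 12 fits without 1 library. For Nlrp1b it was lost in 5 of them, on leaving out any TG untreated library or IL4c untreated 1 or 2 (adjusted p up to 0.1002). Casp4, at 25.3 ± 3.86 CPM in TG and 25.3 ± 5.99 CPM in IL4c (SD, n = 3 each), differed by −0.0051 ± 0.19 with an interval of −0.43 to 0.41.

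Leaving out the TG pair numbered 1 gave 4 of the 10 genes a call between untreated injections that they did not have with it, while the share of all genes called went from 21% to 38.8%. Without the pair Nlrp3 was 1.02 higher in IL4c (adjusted p = 0.00495, against 0.29 ± 0.42 and 0.657 with it). Nlrc4 was 0.58 higher (adjusted p = 0.0122, against −0.0031 ± 0.37 and 0.997) and Naip5 0.66 higher (adjusted p = 0.0210, against 0.48 ± 0.20 and 0.116). Casp1 was 0.64 lower (log2 −0.64, adjusted p = 0.0167, against −0.50 ± 0.21 and 0.120). Gsdmd and Nek7 did not pass the test with or without the pair.

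With SPARC in both, Casp4 was 0.61 ± 0.19 higher in IL4c than in TG macrophages (adjusted p = 0.0452; 10.9% of all genes were called higher) and Nlrp1b 3.14-fold lower (−1.65 ± 0.26, adjusted p = 0.00249; 10.1% were called lower). The Casp4 call was lost in 7 of the 12 fits without 1 library (adjusted p up to 0.145). It was also lost without the TG pair numbered 1 (0.51, adjusted p = 0.0919). Mefv, lower in IL4c in the untreated cells, was at 75.2 ± 13.6 CPM in TG and 64.8 ± 23.4 CPM in IL4c with SPARC (SD, n = 3 each), and these groups overlapped (−0.22 ± 0.34, adjusted p = 0.685). Casp1 was at 131 ± 31.6 and 131 ± 16.1 CPM (−0.0058 ± 0.21, adjusted p = 0.989). Pycard and Naip5 were 0.46 and 0.58 higher in IL4c with adjusted p of 0.0643 and 0.0653, and 0.0123 and 0.0336 with the block.

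To set the genes side by side, levels were also read per transcript length as FPKM. Pycard had the highest mean in all 4 groups, from 68.5 ± 14.6 FPKM (SD, n = 3) in TG untreated to 152 ± 24.9 in IL4c with SPARC, and Casp1 was second, from 41.5 ± 1.46 to 92.3 ± 20.8. In both TG groups their ranges overlapped, with Casp1 above Pycard in library 2 (81.7 against 63.5 FPKM untreated, 112 against 104 FPKM with SPARC), and in both IL4c groups they did not. In untreated TG macrophages Nek7 (40.9), Gsdmd (32.9), Casp4 (22.4), Naip5 (18.7) and Nlrp3 (17.95) followed, with Mefv (8.95), Nlrp1b (7.94) and Nlrc4 (5.79) lowest, all as mean FPKM. From Nek7 down, each gene's libraries overlapped those of the next. In IL4c with SPARC Casp4 at 69.4 ± 9.06 FPKM and Gsdmd at 53.4 ± 5.53 came next after Casp1, and their ranges overlapped. Nlrp1b was last at 1.08 ± 0.27 FPKM, below Nlrc4 at 6.62 ± 0.81 without overlap. The lowest gene of IL4c untreated was Mefv at 2.68 ± 0.69 FPKM, which overlapped Nlrp1b at 3.79 ± 0.65.

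**Figure D3:**
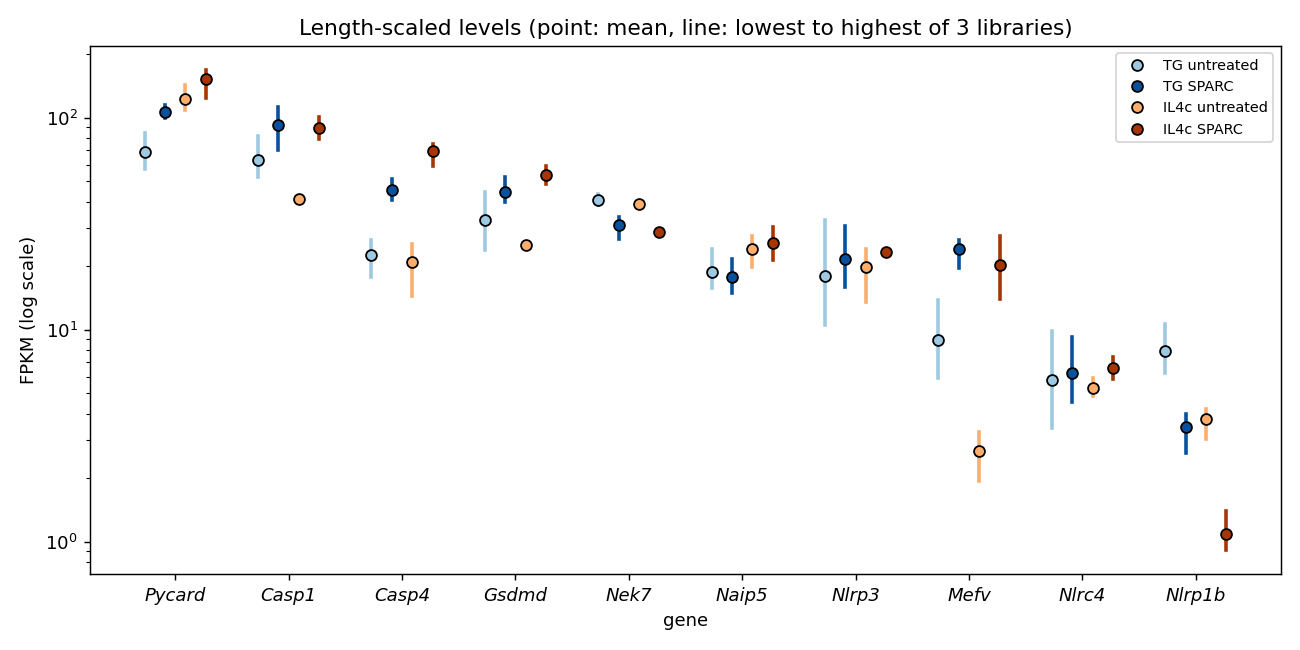
Length-scaled level of each gene in FPKM (y axis, log scale) by gene (x axis) and group (colour), with the point at the mean and the line from the lowest to the highest of 3 libraries. Pycard and Casp1 lie highest; Casp4 reaches 69.4 FPKM in IL4c with SPARC and Nlrp1b drops to 1.08 there.

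The wider pathway was read from 46 further genes in 8 lists, of which 43 could be tested; Nlrp6, Nlrp12 and Trim31 had at most 2 counts in a library. With SPARC 9 rose and 4 fell in TG macrophages, 30.2% of those tested against 11.3% of all genes. In IL4c macrophages 13 rose and 7 fell, 46.5% of those tested against 27.8% of all genes. Over all genes, 6.73% were called higher and 4.52% lower in TG, and 15.1% and 12.7% in IL4c. The medians were 0.09 and 0.12, against −0.03 and −0.0014 over all genes tested. Between injections without SPARC 4 were higher and 4 lower in IL4c, 18.6% of those tested against 21% of all genes.

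Of 7 tested further sensors, Naip2 rose and Nlrp10 and Nlrp1c-ps fell in both macrophage types. Over all genes, 11.3% were called in either direction in TG and 27.8% in IL4c. Naip2, which binds the rod protein of bacterial secretion systems and signals through Nlrc4, went from 126 ± 10.1 to 226 ± 74.0 CPM in TG (0.84 ± 0.21, adjusted p = 0.0290) and from 192 ± 27.9 to 406 ± 48.8 CPM in IL4c (1.08 ± 0.21, adjusted p = 0.00431). Its rise stood beside values for Naip5 that did not pass the test. The sum of Naip1, Naip2, Naip5 and Naip6, whose sequences are alike, changed by 0.34 (adjusted p = 0.342) and 0.35 (adjusted p = 0.246). Nlrp10 fell by 1.51 (adjusted p = 0.0144) and 2.87 (adjusted p = 2.87e-04) from low levels of 4.00 and 6.49 CPM. Aim2, the sensor of cytosolic DNA, was at 39.5 to 45.1 CPM in the 4 group means, with SPARC differences of 0.09 in each (adjusted p = 0.643 and 0.538). Naip1, which binds the secretion system needle, was 2.86 higher in IL4c than in TG without SPARC (184 against 25.3 CPM, adjusted p = 0.00867). The Naip sum was 0.89 higher there (adjusted p = 0.0166).

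Among 6 other caspases and membrane rupture genes, 1 rose and 0 fell in IL4c macrophages. Of all genes, 15.1% were called higher and 12.7% lower there. Dfna5, an earlier symbol of the gasdermin E gene, rose by 1.804 ± 0.47 in IL4c (adjusted p = 0.0173) from 0.986 to 3.45 CPM and was at 3.06 and 3.20 CPM in TG. Ninj1, needed for the final rupture of the membrane, showed −0.05 and −0.24 with SPARC (adjusted p = 0.856 and 0.178) and was 0.46 higher in IL4c than in TG without it (adjusted p = 0.0259).

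Il1b and Il18, which encode the caspase-1 substrates named above, were read with Il1a and the antagonist gene Il1rn. Of these 4 IL-1 family genes, 2 rose in each macrophage type and 0 fell. They were Il1b and Il1a in TG, and Il1a and Il1rn in IL4c. Over all genes, 6.73% were called higher in TG and 15.1% in IL4c. Il1b was at 2.58 to 9.12 CPM in TG untreated and 45.7 to 238 CPM in TG with SPARC, and at 0.373 to 5.91 and 7.05 to 26.2 CPM in IL4c. The groups did not overlap in either, and the spread within TG with SPARC was wide. Il1b rose by 4.09 ± 1.02 in TG (adjusted p = 0.0303) and differed by 2.63 ± 0.98 in IL4c (adjusted p = 0.0729). Il1a rose by 1.96 (adjusted p = 0.00440) and 1.20 (adjusted p = 0.0129). Il18, at 7.70 to 8.68 CPM in the group means, showed −0.04 and 0.17 (adjusted p = 0.961 and 0.721). Il1rn, which encodes the receptor antagonist, rose by 3.24 ± 0.47 in IL4c (37.9 to 358 CPM, adjusted p = 0.00110) and showed 0.82 ± 0.44 in TG (adjusted p = 0.268).

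Of 7 tested triggers and regulators of Nlrp3, 2 rose and 1 fell in TG and 3 rose and 2 fell in IL4c macrophages. The shares of all genes called in either direction were 11.3% and 27.8%. Trim30a, described as a negative regulator of Nlrp3, rose by 1.51 ± 0.19 (118 to 336 CPM, adjusted p = 0.00182) and 1.88 ± 0.19 (106 to 389 CPM, adjusted p = 2.00e-04). Brcc3, a deubiquitinase that acts on Nlrp3, rose by 0.33 (adjusted p = 0.0379) and 0.37 (adjusted p = 0.0109). Txnip, which can bind Nlrp3 under oxidative stress, fell by 0.76 (adjusted p = 0.0425) and 0.99 (adjusted p = 0.00651). In IL4c the channel gene Panx1 rose by 0.61 (adjusted p = 0.0170) and P2rx7, the ATP receptor, named here after its value was seen, fell by 0.55 (adjusted p = 0.0218).

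Among 6 regulators of Nlrp1 and pyrin, Dpp8 fell in both macrophage types and Dpp9 in IL4c. The 2 proteases restrain Nlrp1b. Over all genes, 4.52% were called lower in TG and 12.7% in IL4c. Dpp8 fell by 0.33 ± 0.07 (156 to 124 CPM, adjusted p = 0.0130) and 0.48 ± 0.07 (170 to 123 CPM, adjusted p = 8.01e-04). Dpp9 showed −0.06 in TG (adjusted p = 0.677) and fell by 0.35 in IL4c (adjusted p = 0.00542). Pstpip1, which binds pyrin, was 1.62 lower in IL4c than in TG without SPARC (log2 −1.62, 25.8 against 79.6 CPM, adjusted p = 0.0230), the same direction as Mefv.

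Of 5 interferon-inducible GTPases that open the way for lipopolysaccharide to caspase-11, 3 were called higher with SPARC in TG and 5 in IL4c. In both, 0 were called lower. The shares of all genes called higher were 6.73% in TG and 15.1% in IL4c. Gbp5 went from 24.9 ± 18.1 to 191 ± 99.0 CPM in TG (2.94 ± 0.68, adjusted p = 0.0233) and from 9.32 ± 1.77 to 78.4 ± 22.7 CPM in IL4c (3.07 ± 0.69, adjusted p = 0.00910). Gm12250, the gene of Irgb10, rose by 2.29 (adjusted p = 0.0227) and 2.79 (adjusted p = 0.00471), and Gbp7 by 1.83 (adjusted p = 0.0285) and 1.61 (adjusted p = 0.0234). Gbp2 and Gbp3 rose in IL4c by 2.88 (adjusted p = 0.0198) and 2.17 (adjusted p = 0.0197), and showed 2.11 and 1.90 in TG (adjusted p = 0.0983 and 0.0600).

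Of 5 transcription factors of inflammasome genes, 0 passed the test in TG (11.3% of all genes) and 1 in IL4c (27.8% of all genes). It was Irf8, a factor described for Naip genes, which fell by 1.38 ± 0.26 in IL4c (132 to 50.9 CPM, adjusted p = 0.00389) and showed 0.25 in TG (adjusted p = 0.595). Irf1 showed 1.29 ± 0.47 in TG (adjusted p = 0.110) and 0.80 ± 0.47 in IL4c (adjusted p = 0.234). Of the serpins Serpinb1a and Serpinb9 and Card19, Serpinb9 rose by 2.26 ± 0.40 in IL4c (12.96 to 62.1 CPM, adjusted p = 0.00305), with 0.92 in TG (adjusted p = 0.160). Serpinb1a was 2.98 higher in IL4c than in TG without SPARC (adjusted p = 0.0119). Card19 showed 0.22 and 0.03 with SPARC (adjusted p = 0.522 and 0.928).

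**Figure D4:**
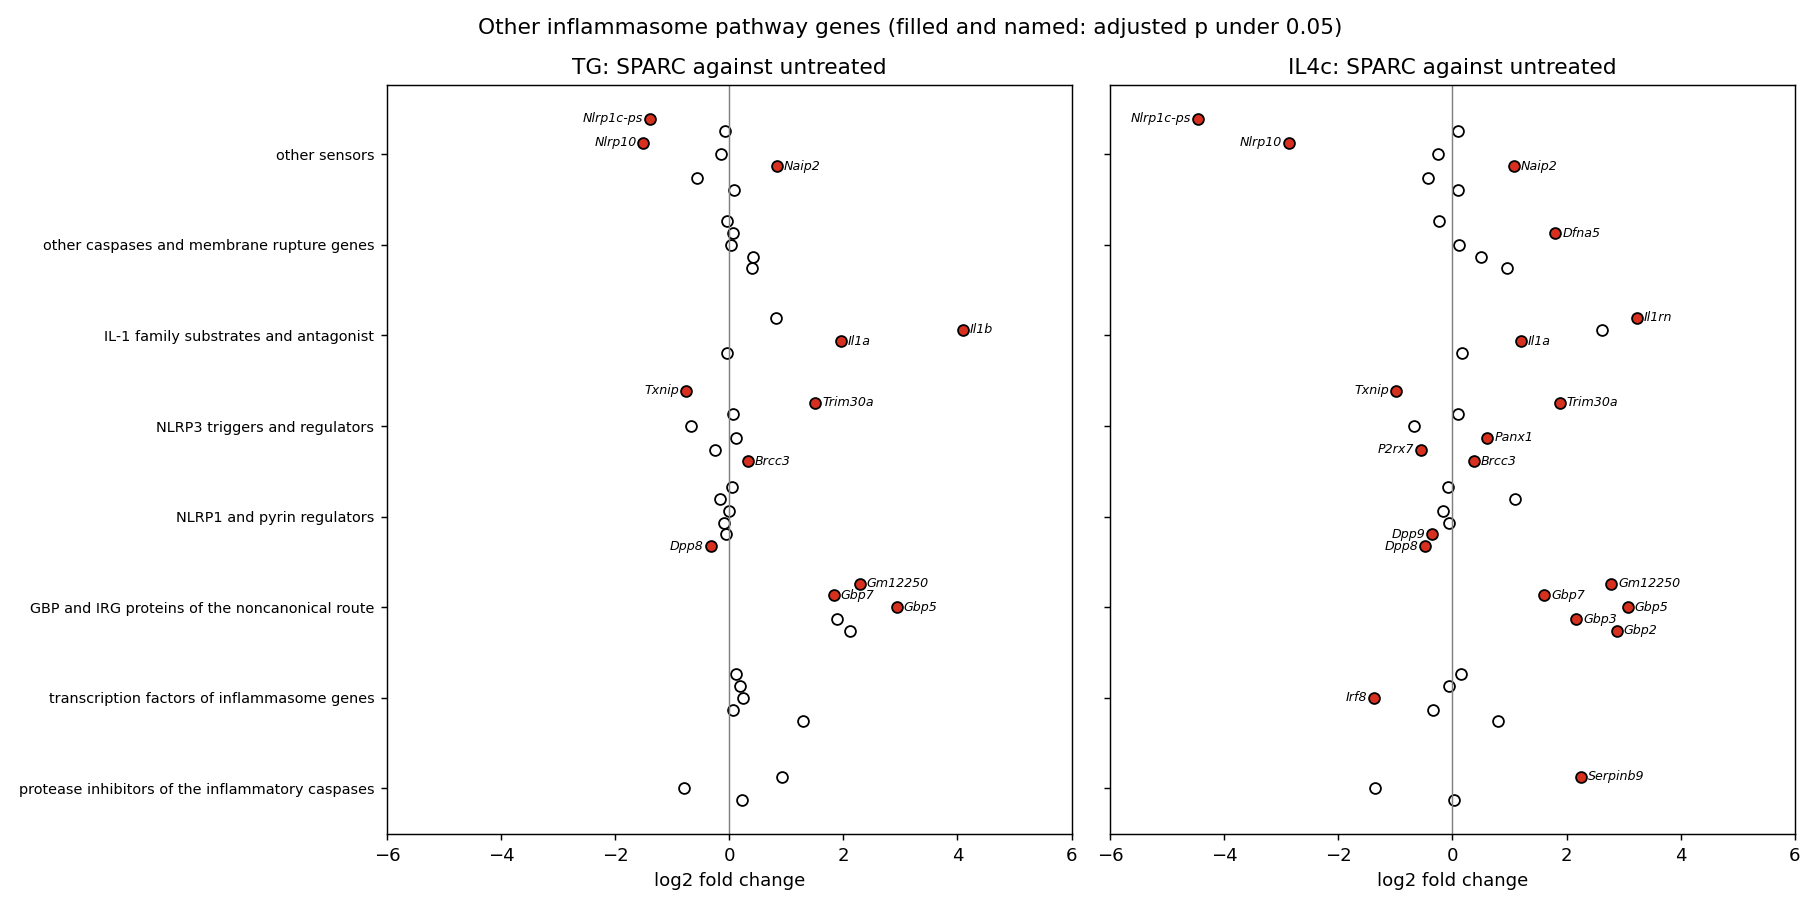
Log2 fold change with SPARC (x axis) of the tested pathway genes reported here in 8 lists (y axis), in TG (left) and IL4c (right) macrophages; filled, named points have an adjusted p under 0.05. The 5 genes of the noncanonical route lie between 1.61 and 3.07, and Nlrp10 and Nlrp1c-ps are the leftmost points of both panels.

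The genes most like each of the 10 were listed by the Pearson correlation of log2 CPM over the 12 libraries, among 8598 genes averaging 10 CPM or more. These correlations include the differences between groups and are given as a description. Closest to Casp4 were Azi2 (0.986), Ogfr (0.978) and Phf11b (0.973), and closest to Gsdmd Trim34a (0.982), Cmtr1 (0.982) and H2-Q5 (0.980). Mefv was followed by Shisa5 (0.977), Mmp14 (0.976) and Skil (0.962), and Casp1 by Zc2hc1a (0.964), Erap1 (0.963) and Faf2 (0.957). Nlrp1b was closest to Arhgap17 (0.974), Nek7 to Fcho2 (0.975), Pycard to Rab11a (0.975), Naip5 to Dock6 (0.957), Nlrc4 to Rhobtb2 (0.959) and Nlrp3 to Lrba (0.965). Among the 10 themselves, the highest correlations were those of Nlrp3 with Nlrc4 (0.914) and of Casp4 with Gsdmd (0.900). Nlrp3 and Nlrc4 were both high in the TG pair numbered 1, whose part in their correlation was not tested.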

How the data were processed

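The authors deposited 1 matrix of expected counts per gene, of which 7.97% of values are not whole, and 1 matrix of FPKM values, scaled by the authors for gene length and depth. CASAVA, bcl2fastq 1.8.4, STAR and RSEM were used, per the submitters' processing notes. The build, annotation and strandedness were not given in the sources used here. GENCODE M21 (GRCm38) holds 47310 of the identifiers, without the version, and gave positions; 3 genes antisense to or overlapping Nek7 had at most 3 counts. GENCODE also places Gm45205 opposite Pycard and another gene over Nlrc4, neither analysed here; the first lies on the other strand, so that without strand its reads and those of Pycard cannot be told apart, and the second lies on the strand of Nlrc4.

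Expected counts were rounded and fitted with edgeR 4.0.16 in R 4.3.3 (glmQLFit, robust, TMM, filterByExpr with a minimum count of 10) over all 12 libraries in 4 groups, with 8 residual degrees of freedom. P-values were adjusted by the Benjamini-Hochberg method over 15232 genes, and a gene passed under 0.05. CPM uses TMM-scaled library sizes. SE is the size of the log2 fold change divided by the root of F, and 95% intervals come from the same model and reflect the spread between libraries. Depth was 31501941 to 42288785 counts, and the limit of 3 counts covers counting error only. The model was tested on simulated data with independent libraries. These held neither the pairing by number nor a pair that stood apart, so that test does not cover them.

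Pairing of libraries by number within an injection was read from the data, as the labels do not state it. Deviations from group means correlated at 0.342 to 0.735 in all 6 same-number pairs, and at −0.659 to 0.507 for different numbers. Each untreated library correlated best with the SPARC library of its number. For TG untreated 2 that was 0.599 against 0.507 with TG SPARC 3, so the ranges overlap and the pairing is not settled. Across injections same numbers gave −0.178 to 0.250. Counts of libraries within a group differed beyond sampling noise (chi-square over its degrees of freedom 9.80 or more).

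Results were refitted with DESeq2 1.42.0 and limma-voom (limma 3.58.1), with RLE or total-count scaling, and with no filter or one of 5 CPM in 3 libraries. They were also refitted on log2 FPKM with 1 or 0.1 added (minimum 1 FPKM in 3 libraries, or none), on the compared groups only, with the library number as a block, and without 1 library or 1 pair. For SPARC comparisons and their difference the block was set within each injection. For comparisons between injections it joined same numbers of TG and IL4c. The genes, lists and tests were chosen with earlier results of these data known. All 10 genes were named, with up to 3 genes of smallest p from each pathway list and SPARC comparison, up to 2 between injections, and Il1b, Il18, Aim2 and Ninj1. One gene of the pathway lists enters the counts and is not reported here by itself. Promoter sequences are from RefSeq.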

Additional observations from a re-analysis of the deposited data

How the results depend on the processing

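Counts of the 10 genes called moved as follows. TG higher (2): 4 with DESeq2, 1 with the compared groups alone, 5 with the replicate block, 6 without both TG libraries numbered 1, 1 to 5 without 1 library. Pycard was also called there with RLE scaling, limma-voom, no low-count filter and the strict filter (adjusted p 0.0406 to 0.0492). So it was with log2(FPKM + 1), log2(FPKM + 0.1) and without the IL4c pair (adjusted p 0.0181 to 0.0373). TG lower (1): 2 with total-count scaling, DESeq2, the strict filter, log2(FPKM + 1), log2(FPKM + 0.1) or the replicate block, 0 with the groups alone or without the TG pair, 0 to 1 without 1 library. IL4c lower (2): 1 without both IL4c libraries numbered 3, 1 to 2 without 1 library; IL4c higher stayed at 4 in every fit without 1 library. IL4c higher gained Nlrc4 with the replicate block and lost Casp1 without the IL4c pair. IL4c against TG untreated, higher (1): 4 without the TG pair, 2 without the IL4c pair, 1 to 3 without 1 library; lower (2): 1 without the IL4c pair, 1 to 2 without 1 library. Casp1 was also called lower there with total-count scaling (adjusted p = 0.0466) and without the TG pair (adjusted p = 0.0167). With SPARC, higher (1): 0 with total-count scaling, no low-count filter and the 3 FPKM settings, 2 with the strict filter, 3 with DESeq2, the replicate block and without the IL4c pair, 4 without the TG pair, 0 to 3 without 1 library; lower (1): 2 without the TG pair. The 4 higher without the TG pair were Nlrc4, Naip5, Pycard and Gsdmd, and Casp4 lost its call there. With the groups alone the TG changes of Mefv (1.53, adjusted p = 0.0719) and Nlrp1b (−1.10, adjusted p = 0.0826) lost their calls. The replicate block gained the calls given beside the results and lost none. The cause of these changes was not tested, beyond fewer libraries where some were left out. Over all single-gene results and settings, 1085 kept direction and call, 55 gained a call, 33 lost it and 77 changed sign, all 77 from values that had not passed the test. These were, as log2 changes: Naip5 in TG with SPARC, 0.0156 without the filter, 0.0242 without the TG pair, 0.0047 without the IL4c pair, 0.34 summed with near-identical genes (a setting chosen after seeing the data), −0.13 to 0.15 without 1 library; Nlrc4 in TG with SPARC, −0.15 to 0.74 without 1 library. In IL4c with SPARC, without 1 library, Nlrp3 gave −0.0070 to 0.35 and Naip5 −0.0666 to 0.22. For Nlrc4 between untreated injections the values were 0.0325 with RLE scaling, 0.033 with DESeq2, 0.0276 with the strict filter, 0.12 with limma-voom, 0.0438 without the filter, 0.0366 with the groups alone, 0.0016, 0.0216 and 0.0016 with log2(FPKM + 1), log2(FPKM + 0.1) and unfiltered FPKM, 0.10 with the replicate block, 0.58 without the TG pair, 0.10 without the IL4c pair, and −0.20 to 0.58 without 1 library. There Nek7 gave −0.0748 with total-count scaling and −0.0634, −0.0648 and −0.0634 in the FPKM settings, and Casp4 0.0246 with RLE scaling, 0.0244 with DESeq2, 0.028 without the filter, 0.0263 with the strict filter, 0.0254 with the groups alone, 0.0741 without the TG pair, 0.21 without the IL4c pair, and −0.14 to 0.18 without 1 library. With SPARC, Mefv between injections gave 0.0109 without the IL4c pair and −0.53 to 0.0103 without 1 library, Nek7 −0.21 to 0.0087 without 1 library, and Casp1 0.0131 with RLE scaling and DESeq2, 0.0182 with limma-voom, 0.0174 with the replicate block, 0.0272 with the strict filter and −0.19 to 0.19 without 1 library. For the difference of responses, without 1 library, Nlrp3 gave −0.87 to 0.11, Nlrc4 −0.41 to 0.48 (−0.0648 without the TG pair) and Naip5 −0.0593 to 0.22. Total-count scaling moved the median of all genes by −0.11 between untreated injections, and the share of higher among called genes from 48.4% to 29.3% there and from 59.8% to 44.7% in TG with SPARC (47.6% with log2(FPKM + 1)). The share of all genes called moved by over 1.5 times as well: in TG with SPARC (11.3%) to 17.3% with DESeq2, 27.3% with the replicate block, 4.71% with no low-count filter, 3.83% with unfiltered FPKM and 3.55% with the groups alone, and in IL4c with SPARC (27.8%) to 13.4% with no low-count filter, 12.9% with unfiltered FPKM, 45.2% with the replicate block, 42.1% without the TG pair and 17.1% without the IL4c pair. Between injections (21% untreated and 21% with SPARC) it was 8.77% and 9.82% with no low-count filter, 10.1% and 9.35% with unfiltered FPKM, 11.4% with the untreated groups alone, and 38.8% and 36.1% without the TG pair. Without 1 library the share was 4.68% to 13.4% in TG and 15.9% to 33.2% in IL4c with SPARC, and 8.75% to 29.3% and 11.3% to 27.5% between injections. In TG with SPARC it was 14.6% without the TG pair. Depth limits the lowest levels most, those of Nlrp1b in IL4c with SPARC and of Nlrp10, Nlrp1c-ps and Dfna5.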
